A study of Mus musculus with 20 samples.

Results

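The mature strands of the mouse microRNAs miR-135a and miR-135b were followed in ventral midbrain cultures after 1 and 5 days in vitro (DIV1 and DIV5), with and without glial cell line-derived neurotrophic factor (GDNF). A microRNA (miRNA) is cut from a hairpin RNA, whose left strand gives the 5p arm and whose right strand the 3p arm. All rows whose name begins with miR-135a or miR-135b were taken, and there were 5 of them among the 1886 miRNA names listed: mmu-miR-135a-5p, mmu-miR-135b-5p, mmu-miR-135a-1-3p, mmu-miR-135a-2-3p and mmu-miR-135b-3p, written below without the mouse prefix. All 5 passed the filter on low counts, as did 542 miRNAs in all.

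The cells came from the ventral mesencephalon of C57Bl6/J embryos at embryonic day 12.5, with meninges removed, and were kept in serum-free medium. The 4 groups were cultures with 10 ng/ml GDNF at DIV5, cultures without added GDNF at DIV5, cultures with 10 ng/ml GDNF at DIV1 and cultures without added GDNF at DIV1. Each group had 5 small RNA libraries made from total RNA, and the untreated cultures of each day are called controls. The labels do not say whether the 5 libraries of a group came from separate dissections, so each p-value measures the spread between these libraries. Such a culture is a mixture of midbrain cells in which dopaminergic neurons are a part, and in bulk RNA fewer cells of a type and less RNA per cell cannot be told apart.

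As background, a miRNA guides the silencing complex to messenger RNAs that pair with its seed, bases 2 to 8, and the strand of the hairpin that is not loaded is usually degraded. In the embryonic mouse midbrain miR-135a is known to act on Lmx1b, a transcription factor that specifies dopaminergic progenitors, and on genes of the Wnt pathway, which drives the growth of that progenitor pool. GDNF is a trophic factor that supports dopaminergic neurons through its receptors GFRα1 and RET.

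Mir135a-1 and Mir135a-2 encode the same 5p strand, so reads of miR-135a-5p cannot be assigned to either locus, whereas their 3p strands differ. The 4 mature strands below are printed with bases 2 to 8 in capitals, and no seed is shared among them. The mature strand of miR-135b-5p had no entry in the sequences used, so only its hairpin is printed.
miR-135a-5p: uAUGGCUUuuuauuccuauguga
miR-135a-1-3p: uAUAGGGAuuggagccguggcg
miR-135a-2-3p: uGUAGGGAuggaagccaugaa
miR-135b-3p: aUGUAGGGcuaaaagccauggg
The sequences are from RefSeq on GRCm38.p6. The 3 hairpins show where both arms lie and how close miR-135b is to miR-135a; capitals mark the AUGGCUU seed of the 5p arm.
Mir135a-1: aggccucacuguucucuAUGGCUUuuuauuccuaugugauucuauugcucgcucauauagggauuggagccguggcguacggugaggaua
Mir135a-2: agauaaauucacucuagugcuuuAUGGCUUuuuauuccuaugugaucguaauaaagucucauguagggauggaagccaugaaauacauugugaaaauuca
Mir135b: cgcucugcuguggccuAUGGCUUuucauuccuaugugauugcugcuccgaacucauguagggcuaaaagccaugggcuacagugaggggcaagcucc
Set against miR-135a-5p, the best match in the Mir135b hairpin had 1 mismatch, U11C, with positions counted from 1 at the 5′ end of miR-135a-5p; the mismatch lies outside the seed. The 3p arms each had a different seed.

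The 3 hairpins lie apart from each other. Mir135a-1 is at chr9:106154124-106154213 on the plus strand, in an intron of the antisense RNA D030055H07Rik and over an exon of Glyctk, which runs on the other strand. Mir135a-2 is at chr10:92072086-92072185 on the minus strand, in an intron of Rmst, a long non-coding RNA of the ventral midbrain and neuronal differentiation. Mir135b is at chr1:132198088-132198184 on the plus strand, in an intron of Lemd1. All coordinates are GRCm38.

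Levels are given as CPM, a miRNA's count relative to the summed miRNA count of its library (in units of 1e6 reads), on edgeR's TMM-scaled library sizes. As a mean over the 20 libraries miR-135a-5p had 1573 CPM and was the 70th most abundant of the 542 tested miRNAs. It was followed by miR-135a-1-3p at 738.1 CPM (rank 96), miR-135b-5p at 591.5 CPM (rank 104), miR-135a-2-3p at 279.8 CPM (rank 160) and miR-135b-3p at 219.4 CPM (rank 184). Mature strands are all of similar length, but libraries of this kind capture each sequence with its own efficiency, so only the change between groups is read from a level or from a ratio of strands. How reads that match both Mir135a copies were counted is not given in the sources used here. Of 47 listed mature names that RefSeq assigns to several hairpin genes, 41 had reads, miR-135a-5p among them, and 6 were at 0 in every library, among them miR-138-5p and miR-219a-5p. Of 1557 listed names from 1 hairpin gene, 240 were at 0 in every library, so a level of 0 was not particular to names from several genes. A miRNA at 0 is described only as listed at 0.

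Across days, the 5p and 3p strands did not move together: miR-135a-5p was higher at DIV5 with and without GDNF, miR-135b-5p was higher without GDNF, miR-135b-3p was lower with and without GDNF, and miR-135a-1-3p was lower with GDNF. Of the 5 arms, 1 rose and 2 fell at DIV5 with GDNF, where 25.1% of all 542 tested miRNAs rose and 27.3% fell, 52.4% in all. Without GDNF 2 of the 5 rose and 1 fell, where 31.4% of all rose and 29.3% fell, 60.7% in all. A change is called here at an adjusted p below 0.05 in edgeR's quasi-likelihood test with Benjamini-Hochberg adjustment over all 542 miRNAs, and all adjusted p-values below are from that test unless another is named. The share of miRNAs that changed with the day was large, so a count of 3 in 5 is near the background.

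miR-135a-5p, the strand with the known action on Lmx1b, was measured at 1645, 1625, 2125, 2200 and 2610 CPM in DIV5 GDNF libraries 1 to 5, and at 1411, 1800, 2304, 2325 and 1974 CPM in DIV5 control libraries 1 to 5. In DIV1 GDNF libraries it was at 1175, 1204, 1237, 1055 and 1230 CPM, and in DIV1 control libraries at 995, 1002, 1199, 1128 and 1216 CPM. Every DIV5 library was above every DIV1 library. The share of all tested miRNAs whose days separated in this way was not counted, so such a separation is given as a description here and for the strands below. The group means were 2041 ± 414 CPM for DIV5 GDNF, 1963 ± 381 CPM for DIV5 control, 1180 ± 74.2 CPM for DIV1 GDNF and 1108 ± 105 CPM for DIV1 control (SD, n = 5 each). In this order the step between days exceeded the spread, and the steps between GDNF and control did not. The level at DIV5 was 1.73-fold that at DIV1 with GDNF (log2 fold change 0.79, SE 0.14, 95% interval 0.50 to 1.09, adjusted p = 0.000105) and 1.77-fold that at DIV1 without it (log2 0.83, SE 0.14, interval 0.53 to 1.12, adjusted p = 5.47e-05).

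The spread of miR-135a-5p was wider at DIV5 than at DIV1 and followed the replicate numbers. DIV5 replicates 1 and 2 had total counts of 1061619 to 1907937 and 17.7% to 19.5% of reads outside annotated miRNAs, whereas DIV5 replicates 3 to 5 had totals of 2969524 to 4324505 and 9.51% to 13.3% outside. These shares are of the reads in and outside annotated miRNAs together, without the other tally lines. The DIV1 libraries, with totals of 420118 to 1761023 and 16.5% to 22.6% outside, were nearer to DIV5 replicates 1 and 2. miR-135a-5p averaged 1635 CPM in DIV5 GDNF replicates 1 and 2 and 2312 CPM in DIV5 GDNF replicates 3 to 5, and 1605 and 2201 CPM in the corresponding DIV5 control libraries. With DIV5 replicates 1 and 2 alone the log2 fold change over DIV1 was 0.47 with GDNF (adjusted p = 0.00404) and 0.59 without (adjusted p = 0.000555). With DIV5 replicates 3 to 5 alone it was 1.01 with GDNF (adjusted p = 6.72e-07) and 0.99 without (adjusted p = 7.99e-07). The call held in both parts, and the rise was smaller in replicates 1 and 2, whose depth was nearer to that of DIV1. Day and depth run together in the fold changes over all libraries. The part that library depth had in the size of the rise was not tested.

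miR-135b-5p, which carries the same seed in its hairpin, was measured at 609, 614, 586, 644 and 726 CPM in DIV5 GDNF libraries 1 to 5 and at 638, 690.1, 648, 666 and 752 CPM in DIV5 control libraries. In DIV1 GDNF libraries it was at 438, 519, 618, 517 and 556 CPM, and in DIV1 control libraries at 358, 527, 584, 565 and 575 CPM. Without GDNF every DIV5 library was above every DIV1 library, whereas with GDNF DIV1 library 3 lay above 3 of the 5 DIV5 libraries. The means were 636 ± 54.5 CPM for DIV5 GDNF, 679 ± 45.5 CPM for DIV5 control, 529.8 ± 65.9 CPM for DIV1 GDNF and 522 ± 94.2 CPM for DIV1 control (SD, n = 5 each).

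Without GDNF miR-135b-5p was 1.3-fold higher at DIV5 than at DIV1 (log2 0.38, SE 0.13, interval 0.11 to 0.65, adjusted p = 0.0148). With GDNF the log2 fold change was 0.26 (SE 0.13, interval -0.01 to 0.53, adjusted p = 0.0925), which did not pass. The call without GDNF was lost with DIV5 replicates 1 and 2 alone, at a log2 fold change of 0.41 and an adjusted p of 0.0501, and held with replicates 3 to 5 alone (0.40, adjusted p = 0.0247). With GDNF the same parts gave 0.21 (adjusted p = 0.348) and 0.34 (adjusted p = 0.0534), and 11 of 32 alternative settings passed, among them DESeq2 (0.29, adjusted p = 0.0453) and the fits that left out 1 library: DIV1 control 1 (0.29), DIV1 GDNF 3 (0.35), DIV5 control 1 (0.32), DIV5 control 5 (0.31) or DIV5 GDNF 3 (0.35). That the call was made without GDNF and not with it does not show a difference between the comparisons: the difference, GDNF effect at DIV5 minus GDNF effect at DIV1, was -0.12 (interval -0.50 to 0.26, adjusted p = 0.938).

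**Figure D1:**
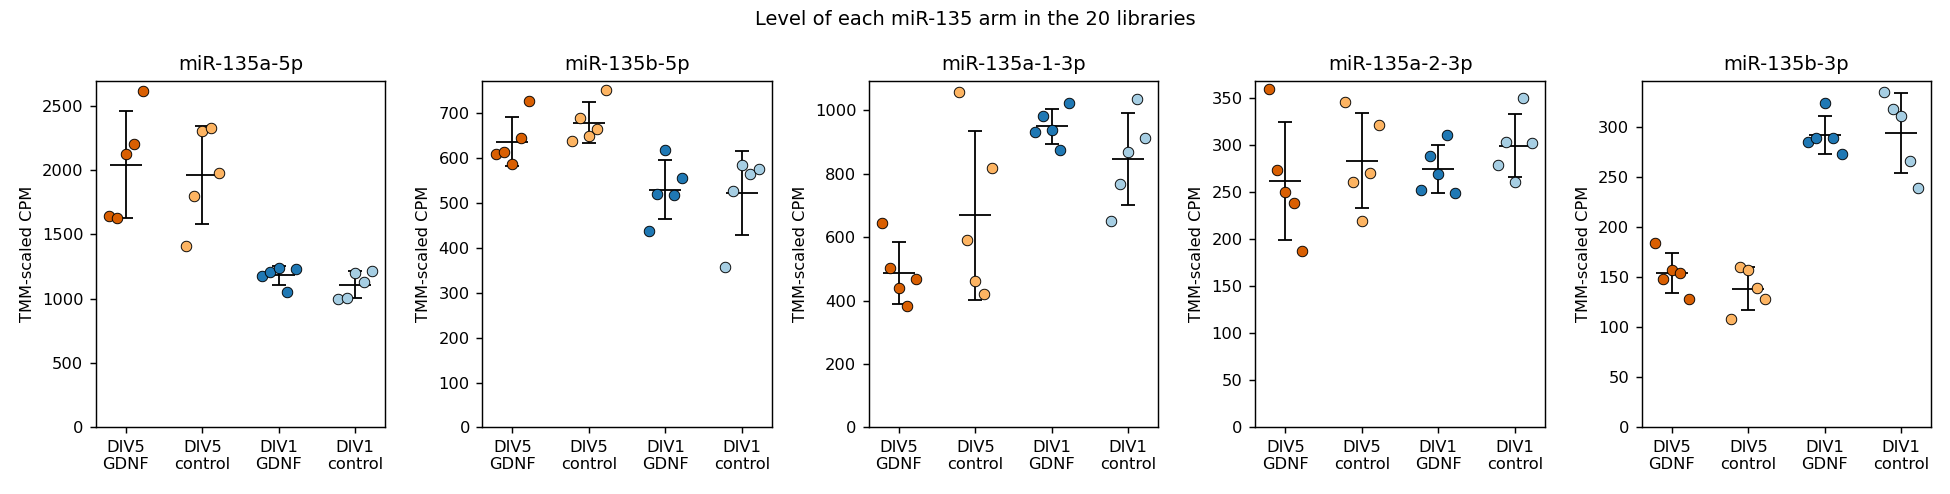
CPM of the 5 strands in every library, with 1 panel for each strand and the groups from left to right in the order DIV5 GDNF, DIV5 control, DIV1 GDNF and DIV1 control; points are libraries, horizontal lines are means and bars are SD (n = 5 each). The DIV5 points of miR-135a-5p lie above all DIV1 points, those of miR-135b-3p lie below all DIV1 points, and DIV5 control libraries 1 and 5 stand above the rest of their group for miR-135a-1-3p.

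The 3p strand of Mir135b fell at DIV5 with and without GDNF. miR-135b-3p was measured at 184, 148, 157, 154 and 129 CPM in DIV5 GDNF libraries 1 to 5 and at 108, 159.9, 157, 139 and 128 CPM in DIV5 control libraries. In DIV1 GDNF libraries it was at 285, 288, 324, 289 and 273 CPM, and in DIV1 control libraries at 334, 318, 310.3, 266 and 239 CPM. All 10 DIV5 libraries lay below all 10 DIV1 libraries. Calls by day were common among all tested miRNAs, and the share of them with such a separation was not counted. The separation is therefore not read as particular to this strand. The level at DIV5 was 0.527 of that at DIV1 with GDNF (log2 fold change -0.92, SE 0.13, interval -1.20 to -0.65, adjusted p = 6.89e-06) and 0.471 without it (log2 -1.09, SE 0.13, interval -1.36 to -0.81, adjusted p = 7.82e-07). Both calls held in all 32 alternative settings.

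The 3p strands of the Mir135a copies differed from each other. miR-135a-1-3p was at 643, 503, 439.7, 384 and 469 CPM in DIV5 GDNF libraries and at 1058, 590.4, 460.1, 420 and 816 CPM in DIV5 control libraries 1 to 5. In DIV1 GDNF libraries it was at 932, 981, 939, 876 and 1022 CPM, and in DIV1 control libraries at 651, 766, 868, 1034 and 911 CPM. With GDNF the days did not overlap, and without GDNF they did, since DIV5 control libraries 1 and 5 reached the DIV1 range. With GDNF miR-135a-1-3p fell at DIV5 to 0.513 of its DIV1 level (log2 -0.96, SE 0.21, interval -1.39 to -0.53, adjusted p = 0.000593), a call that held in all 32 alternative settings. Without GDNF the log2 fold change was -0.34 (SE 0.20, interval -0.76 to 0.09, adjusted p = 0.161).

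The value of miR-135a-1-3p without GDNF depended most on DIV5 control library 1. It passed in 3 of 32 alternative settings, all without that library. In 43 of the 542 tested miRNAs DIV5 control libraries 1 and 5 were both at least 2-fold above the mean of the other 3 libraries of their group. None of the 5 miR-135 strands was among these. miR-135a-1-3p was 2.16-fold above that mean of 490 CPM in library 1 and 1.67-fold above it in library 5. Without both libraries its log2 fold change of DIV5 over DIV1 was -0.77 (adjusted p = 0.000462), and without library 1 alone it was -0.55 (adjusted p = 0.0081). It was -0.60 with DIV5 replicates 3 to 5 alone (adjusted p = 0.00613) and 0.05 with DIV5 replicates 1 and 2 alone (adjusted p = 0.846). For the other strands the ratios of the same libraries to the other 3 lay between 0.658, for miR-135a-5p in library 1, and 1.38, for miR-135a-2-3p in library 1.

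miR-135a-2-3p was at 360, 274, 249.8, 239 and 187 CPM in DIV5 GDNF libraries and at 346, 261, 219.8, 270.4 and 321 CPM in DIV5 control libraries. In DIV1 GDNF libraries it was at 253, 288, 269.7, 310.4 and 249.6 CPM, and in DIV1 control libraries at 279, 303, 261, 351 and 302 CPM. The 4 groups overlapped throughout, with means of 262 ± 63.1, 284 ± 50.3, 274 ± 25.5 and 299 ± 33.6 CPM in the same order (SD, n = 5 each). The DIV5 over DIV1 log2 fold change was -0.07 with GDNF (interval -0.39 to 0.25, adjusted p = 0.714) and -0.08 without (interval -0.40 to 0.25, adjusted p = 0.676). Its sign turned under scaling by library size alone, to 0.07 with GDNF and 0.18 without.

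**Figure D2:**
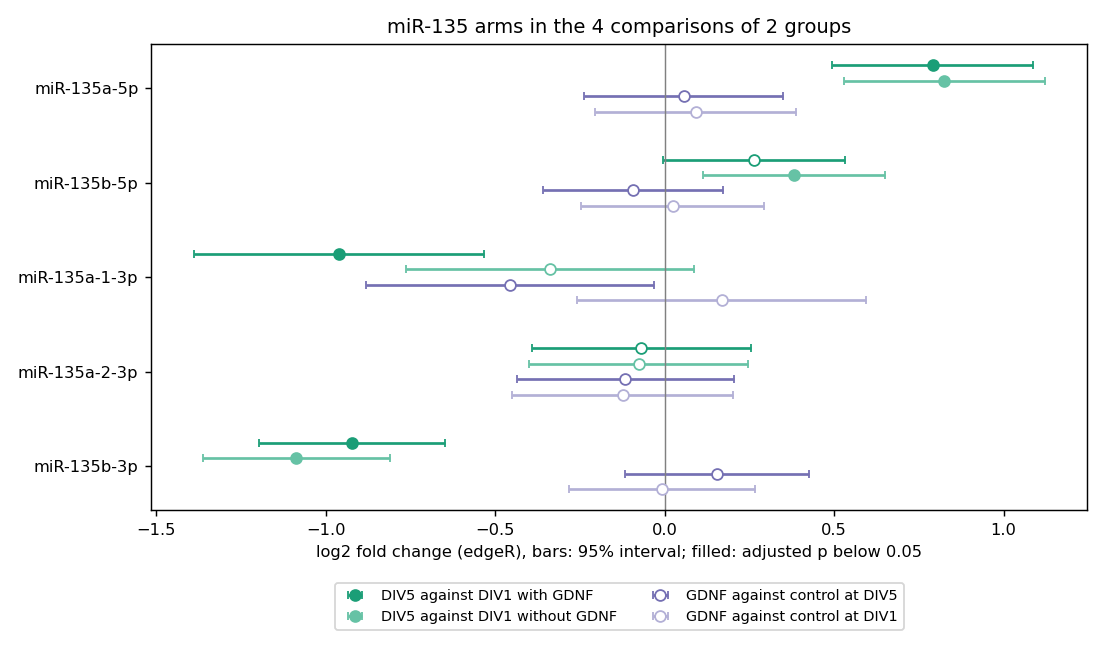
Log2 fold changes of the 5 strands in the 4 comparisons, DIV5 over DIV1 with and without GDNF and GDNF over control at DIV5 and DIV1; points are edgeR estimates, bars are 95% intervals and filled points passed at an adjusted p below 0.05. For DIV5 over DIV1, miR-135a-5p stands at 0.79 and 0.83 and miR-135b-3p at -0.92 and -1.09, and no point of either GDNF comparison is filled.

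The scaling of the libraries moved the size of these changes and none of the directions that were called. The median log2 fold change of all 542 tested miRNAs, DIV5 over DIV1, was 0.00 with GDNF and 0.10 without it. Under scaling by library size alone these medians were 0.15 and 0.36, and the share of called miRNAs that were higher at DIV5 was 58.7%, against 47.9% on the main scaling, with GDNF and 67.3%, against 51.7%, without. Under that scaling miR-135a-5p rose by a log2 of 0.95 with GDNF and 1.08 without, and miR-135b-3p fell by 0.78 with GDNF and 0.84 without.

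Ratios within a library do not depend on the scaling. The number of miR-135b-5p reads for each read of miR-135b-3p was 3.32, 4.15, 3.73, 4.19 and 5.65 in DIV5 GDNF libraries, and 5.9, 4.31, 4.12, 4.77 and 5.88 in DIV5 control libraries. It was 1.54, 1.8, 1.91, 1.79 and 2.03 in DIV1 GDNF libraries, and 1.07, 1.66, 1.88, 2.12 and 2.4 in DIV1 control libraries. All DIV5 libraries lay above all DIV1 libraries, so that the 3p strand made up 19.6% ± 3.0 of miR-135b reads in DIV5 GDNF, 16.9% ± 2.35 in DIV5 control, 35.6% ± 2.42 in DIV1 GDNF and 36.4% ± 7.34 in DIV1 control (SD, n = 5 each). The log2 ratio was higher at DIV5 by 1.2 with GDNF and by 1.49 without it (exact permutation tests, two-sided, both p = 0.00794, the smallest that 5 against 5 libraries allow, both adjusted p = 0.0238 over 12 tests of 3 ratios). The 3 ratios of these tests were chosen after the levels had been seen. Without GDNF the days had already separated fully for both arms, in opposite directions. That fixes the separation of their ratio, so its p-value there adds nothing to the levels.

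The number of miR-135a-5p reads for each read of its 3p strands, summed over both copies, averaged 2.87 ± 0.979 in DIV5 GDNF, 2.32 ± 1.04 in DIV5 control, 0.964 ± 0.0504 in DIV1 GDNF and 0.977 ± 0.105 in DIV1 control (SD, n = 5 each). It ranged from 1.64 to 3.98 in DIV5 GDNF libraries and from 0.889 to 1.02 in DIV1 GDNF libraries, which did not overlap. In DIV5 control libraries it ranged from 1 to 3.39, and in DIV1 control libraries from 0.815 to 1.07, so that these groups overlapped through DIV5 control library 1. The log2 ratio was higher at DIV5 by 1.5 with GDNF (exact permutation test, p = 0.00794, adjusted p = 0.0238) and by 1.12 without (exact permutation test, p = 0.0238, adjusted p = 0.0571), the second of which did not pass. Without DIV5 control library 1 the second was 1.39 (exact permutation test, adjusted p = 0.0381). With GDNF the days had already separated fully for miR-135a-5p, upward, and for its summed 3p strands, downward. That fixes the separation of their ratio, so its p-value with GDNF adds nothing to the levels.

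The number of miR-135a-1-3p reads for each read of miR-135a-2-3p averaged 1.9 ± 0.348 in DIV5 GDNF, 2.3 ± 0.554 in DIV5 control, 3.49 ± 0.459 in DIV1 GDNF and 2.82 ± 0.395 in DIV1 control (SD, n = 5 each). This is a ratio of the 3p strands of the copies on chromosomes 9 and 10, and the output of the copies was not measured. With GDNF its log2 was lower at DIV5 by a difference of -0.886 (exact permutation test, p = 0.00794, adjusted p = 0.0238). Without GDNF the difference was -0.32 (exact permutation test, p = 0.135, adjusted p = 0.226). These 3 strand ratios were chosen after the levels had been seen.

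The ratio of miR-135a-5p to miR-135b-5p, the pair that shares the seed, averaged 3.2 ± 0.486 in DIV5 GDNF, 2.9 ± 0.595 in DIV5 control, 2.25 ± 0.275 in DIV1 GDNF and 2.17 ± 0.351 in DIV1 control (SD, n = 5 each). Its log2 was higher at DIV5 by 0.501 with GDNF (exact permutation test, p = 0.0159, adjusted p = 0.0635 over 4 tests) and by 0.408 without it (exact permutation test, p = 0.0476, adjusted p = 0.0952). Neither passed after adjustment, and the days overlapped in both. Without DIV1 control library 1 the difference without GDNF was 0.501 (exact permutation test, adjusted p = 0.0317). In parts chosen after the data were seen, the differences with DIV5 replicates 1 and 2 alone were 0.256 with GDNF and 0.161 without, and with DIV5 replicates 3 to 5 alone they were 0.665 and 0.573. The summed level of both 5p strands was 2677 ± 457 CPM in DIV5 GDNF, 2641 ± 388 CPM in DIV5 control, 1710 ± 118 CPM in DIV1 GDNF and 1630 ± 187 CPM in DIV1 control (SD, n = 5 each), given as a description.

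**Figure D3:**
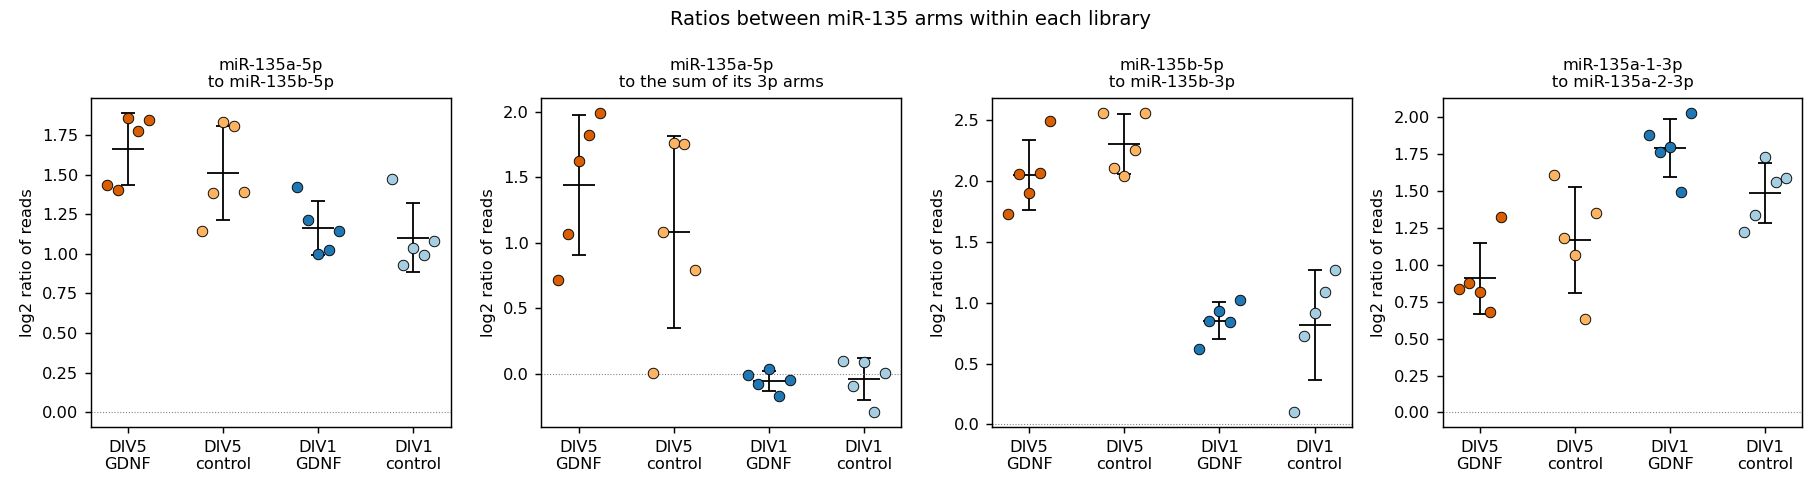
Log2 read ratios between strands in every library, with 1 panel for each ratio and the groups from left to right in the order DIV5 GDNF, DIV5 control, DIV1 GDNF and DIV1 control; points are libraries, horizontal lines are means and bars are SD (n = 5 each). For miR-135b-5p over miR-135b-3p all DIV5 points lie above all DIV1 points, whereas for miR-135a-5p over miR-135b-5p the days overlap.

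Opposite moves of the arms of 1 hairpin were uncommon among the pairs that could be compared. Of 144 names tested as both a 5p and a 3p arm, 8 had arms called in opposite directions between DIV5 and DIV1 with GDNF (5.56%) and 7 without it (4.86%), and in 4 of these in each case the 5p arm rose and the 3p arm fell. Without GDNF miR-135b was among them, with a difference of 1.47 on the log2 scale between its arms, against a median size of 0.574 over the 144 pairs, and 19 pairs, miR-135b included, had a difference at least as large in either direction. With GDNF, where the 5p arm did not pass, the difference was 1.19 against a median size of 0.42, and 13 pairs had one at least as large. The position of miR-135b among the pairs is a description, since the comparison was chosen after its values were seen.

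**Figure D4:**
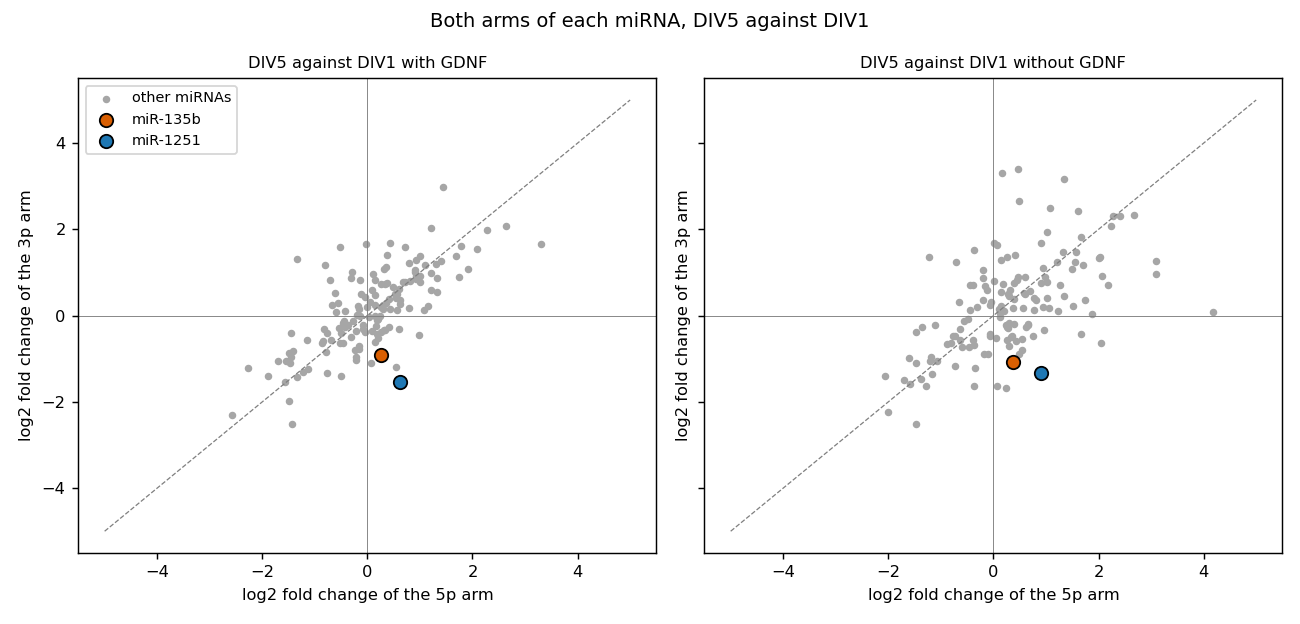
Log2 fold change of the 3p arm against that of the 5p arm, DIV5 over DIV1, for the 144 names tested as both arms, with GDNF on the left and without on the right; miR-135b (orange) and miR-1251 (blue) are marked and the dashed line marks equal change. miR-135b lies in the lower right part of each panel, at 0.26 for the 5p arm and -0.92 for the 3p arm with GDNF, and at 0.38 and -1.09 without.

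None of the 5 strands passed the test for GDNF at either day. At DIV5, of 542 miRNAs, 0.185% were called in edgeR's test, which is 1 miRNA, miR-182-5p, and 16.2% had an unadjusted p under 0.05. DESeq2 called 26 there, of which 26.9% were higher with GDNF, and none of the 5 strands. This count in edgeR's test depended on single libraries: it was 43, 32 and 37 without DIV5 control 2, 3 and 4, 2 without DIV5 control 1 or 5 or DIV5 GDNF 5, and 0 without DIV5 GDNF 1 or 2. At DIV1 0% were called, with 1.29% at an unadjusted p under 0.05, and DESeq2 and limma's voom called 0 as well. With the replicate number as a block, 3 miRNAs were called at DIV5 and none of the 5 strands.

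For miR-135a-5p the log2 fold change of GDNF over control was 0.06 at DIV5 (interval -0.24 to 0.35, adjusted p = 0.930) and 0.09 at DIV1 (interval -0.20 to 0.39). For miR-135b-5p it was -0.09 at DIV5 (interval -0.36 to 0.17, adjusted p = 0.866) and 0.02 at DIV1 (interval -0.25 to 0.29). The intervals leave room for changes of this size in either direction, so equal levels were not shown.

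Among the 3p strands miR-135b-3p had a log2 fold change of 0.16 at DIV5 (interval -0.12 to 0.43, adjusted p = 0.642) and -0.01 at DIV1 (interval -0.28 to 0.27), and miR-135a-2-3p had -0.12 at DIV5 (interval -0.44 to 0.20, adjusted p = 0.866) and -0.12 at DIV1 (interval -0.45 to 0.20). At DIV1 the adjusted p was 1.00 for all 5 strands. The widest difference was that of miR-135a-1-3p at DIV5, at -0.46 (SE 0.20, interval -0.88 to -0.03, unadjusted p = 0.0361, adjusted p = 0.257), with means of 488 ± 97.3 CPM with GDNF and 669 ± 267 CPM in controls. Without DIV5 control libraries 1 and 5 it was -0.02 (adjusted p = 0.999). At DIV1 the same strand had 0.17 (interval -0.26 to 0.59), and the difference between the days' GDNF effects was -0.62 (SE 0.29, unadjusted p = 0.0423, adjusted p = 0.505). For that difference 0% of miRNAs were called, with 9.23% at an unadjusted p under 0.05, and DESeq2 and voom called 0.

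No ratio passed the test between GDNF and control. The log2 ratio of miR-135a-5p to miR-135b-5p differed by 0.152 at DIV5 (exact permutation test, p = 0.302, adjusted p = 0.402) and by 0.058 at DIV1 (exact permutation test, p = 0.603). The nearest to the threshold was miR-135a-1-3p over miR-135a-2-3p at DIV1, with a difference of 0.306 (exact permutation test, p = 0.0556, adjusted p = 0.111), and without DIV1 GDNF library 4 it was 0.381 (exact permutation test, adjusted p = 0.0381).

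The miRNAs encoded nearest to the hairpins were compared with the members. Mir1251 lies 64954 bp from Mir135a-2, and miR-1251-5p was at 206 ± 34.5 CPM in DIV5 GDNF, 239.7 ± 92.4 CPM in DIV5 control, 134 ± 17.0 CPM in DIV1 GDNF and 128 ± 13.8 CPM in DIV1 control (SD, n = 5 each). It rose at DIV5 by a log2 of 0.63 with GDNF (adjusted p = 0.0118) and 0.91 without (adjusted p = 0.000599). With DIV5 replicates 1 and 2 alone neither passed, at 0.34 with GDNF (adjusted p = 0.131) and 0.37 without (adjusted p = 0.0878). Its 3p arm, at a mean of 6.19 CPM over all libraries, fell by 1.55 with GDNF (adjusted p = 0.0119) and by 1.33 without (adjusted p = 0.0371), so that this pair too was among those with opposite calls. At so low a level these calls were lost without any 1 of several libraries: without GDNF the adjusted p was 0.0624, 0.218 or 0.0535 without DIV1 control 3, 4 or 5 and 0.0723, 0.0595 or 0.0821 without DIV5 control 1, 2 or 5, and with GDNF it was 0.0528 or 0.0619 without DIV1 GDNF 2 or 3. Mirlet7g lies 24626 bp from Mir135a-1, and let-7g-5p, a member of the let-7 family that marks differentiated cells, was at 3538 ± 281 CPM in DIV5 GDNF, 4154 ± 658 CPM in DIV5 control, 2338 ± 364 CPM in DIV1 GDNF and 2373 ± 574 CPM in DIV1 control (SD, n = 5 each). It rose by a log2 of 0.60 with GDNF (adjusted p = 0.00273) and 0.81 without (adjusted p = 0.000145). Neither neighbour's 5p arm was called for GDNF at DIV5, with adjusted p-values of 0.668 for miR-1251-5p and 0.528 for let-7g-5p.

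Other miRNAs known from midbrain dopaminergic neurons were counted from a list of miR-133b, miR-7a, miR-7b, miR-34b, miR-34c, miR-132 and miR-218. Of its 16 arms 11 were tested, and both arms of miR-133b were listed at 0 in all groups. At DIV5 against DIV1, 3 rose and none fell with GDNF, with a median log2 fold change of 0.41, and 5 rose and none fell without it, with a median of 0.36; the medians of all tested miRNAs were 0.00 and 0.10. Of all 542 miRNAs 25.1% rose with GDNF and 31.4% without, so the count with GDNF is near the background. Over the 32 alternatives the count that rose lay between 2 and 6 with GDNF and between 4 and 6 without. For GDNF none was called at either day in edgeR's test, with medians of -0.34 at DIV5 and -0.06 at DIV1. DESeq2 called 2 lower with GDNF at DIV5, as did edgeR's test without DIV5 control 2, 3 or 4.

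Of the list's 5 most abundant arms, miR-132-3p, a miRNA induced by neuronal activity, rose at DIV5 by a log2 of 1.55 with GDNF (adjusted p = 0.000238) and 2.34 without (adjusted p = 2.30e-06). miR-7b-5p, of the family known to repress alpha-synuclein, rose by 2.64 with GDNF (adjusted p = 0.00657) and 4.85 without (adjusted p = 3.11e-05). With DIV5 replicates 1 and 2 alone its value with GDNF was 1.98 and did not pass (adjusted p = 0.0608). miR-218-5p, a neuronal miRNA of motor and dopaminergic neurons, had 0.41 with GDNF (adjusted p = 0.139) and rose by 0.94 without (adjusted p = 0.0016). With DIV5 replicates 1 and 2 alone it had 0.48 without GDNF and did not pass (adjusted p = 0.0532), and with DIV5 replicates 3 to 5 alone it also passed with GDNF (0.61, adjusted p = 0.00696). miR-7a-5p had 1.23 with GDNF (adjusted p = 0.159) and rose by 4.49 without (adjusted p = 0.000126). miR-34c-5p had 0.13 with GDNF (adjusted p = 0.490) and 0.01 without (adjusted p = 0.969). The rises without GDNF were smaller without DIV5 control libraries 1 and 5. They were then 2.89 for miR-7b-5p (adjusted p = 7.93e-06), 1.86 for miR-7a-5p (adjusted p = 0.000158), 1.68 for miR-132-3p (adjusted p = 1.15e-06) and 0.68 for miR-218-5p (adjusted p = 0.00779). With these libraries left out miR-7a-5p (1.28) and miR-218-5p (0.44) also passed with GDNF. miR-7b-5p had a low base, at a mean of 8.89 CPM in DIV1 control and 260 ± 298 CPM in DIV5 control (SD, n = 5 each).

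Summed levels of marker miRNAs for several cell types differed between the days. Neuron markers (miR-124, miR-128, miR-129, miR-137, miR-138, miR-153 and miR-218, the last also in the dopaminergic list) summed to 18930 to 23050 CPM in DIV5 GDNF, 19960 to 27590 CPM in DIV5 control, 8109 to 11270 CPM in DIV1 GDNF and 7578 to 11480 CPM in DIV1 control. Of 15 tested arms 7 rose and 3 fell at DIV5 with GDNF, and 9 rose and 4 fell without, beside 25.1% up and 27.3% down with GDNF and 31.4% up and 29.3% down without among all 542. Neural progenitor markers (miR-9, miR-92b and the miR-17-92 and miR-106b-25 clusters) summed to 90810 to 134400 CPM in DIV5 GDNF, 89140 to 125800 CPM in DIV5 control, 193200 to 217400 CPM in DIV1 GDNF and 195200 to 213400 CPM in DIV1 control. Of 21 tested arms none rose and 19 fell with GDNF, and 1 rose and 17 fell without. The most abundant arm of this list, miR-9-5p at a mean of 72020 CPM, had log2 fold changes of 0.0017 with GDNF and -0.11 without. The rise of miR-135a-5p ran with the neuron sum and against the progenitor sum, and the part of the cell mixture in it was not tested. Listed at 0 were miR-138-5p of the neuron list in all groups and miR-129-5p in DIV1 control, and either miR-19b-2-5p or miR-92a-2-5p of the progenitor list in each group.

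Markers of other cells moved too. Vascular and mesenchymal arms, of which miR-126a-5p, 1 of 10, was listed at 0 in each group, summed to 317 to 3147 CPM in DIV5 GDNF, 639.7 to 1529 CPM in DIV5 control, 2930 to 4391 CPM in DIV1 GDNF and 2984 to 5095 CPM in DIV1 control. Of 7 tested arms none rose and 4 fell in both day comparisons, beside 27.3% down with GDNF and 29.3% without among all 542. Oligodendrocyte lineage arms summed to 336 to 464 CPM in DIV5 GDNF, 358 to 553 CPM in DIV5 control, 738 to 938 CPM in DIV1 GDNF and 745 to 941 CPM in DIV1 control, with miR-219a-5p listed at 0 in all groups and miR-338-3p in the DIV1 groups. Of its 3 tested arms 2 fell and 1 rose in both day comparisons: miR-338-5p ran against the sum, by a log2 of 1.67 with GDNF (adjusted p = 0.000232) and 2.11 without (adjusted p = 1.76e-05). Astrocyte and microglia arms lay between 2509 and 3172 CPM at DIV5 and between 2725 and 3598 CPM at DIV1, nearly all of it miR-21a-5p, with miR-146a-3p listed at 0 in all groups. Of 4 tested arms none rose and 1 fell at DIV5 with GDNF, and 1 rose and 2 fell without. The sum hides these: miR-142a-5p averaged 16.5 CPM in DIV5 GDNF, 16.3 CPM in DIV5 control, 75.8 CPM in DIV1 GDNF and 70.4 CPM in DIV1 control. The erythroid list, which is mostly the joined miR-486 entry, lay between 3295 and 6380 CPM at DIV5 and between 2203 and 3229 CPM at DIV1. Of its 3 tested arms 1, the miR-486 entry, rose and 2 fell in both day comparisons. miR-451a, the defining erythroid miRNA, fell by a log2 of 1.90 with GDNF (adjusted p = 0.00212) and 2.10 without (adjusted p = 0.000837), and miR-144-5p fell by 3.20 with GDNF (adjusted p = 0.000254) and 2.28 without (adjusted p = 0.00488). Epithelial and ependymal arms were at 37.2 CPM or less in sum in every library, with 4 or 5 of 12 listed at 0 in each group.

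The miRNAs whose profile over the 20 libraries lay closest to that of miR-135a-5p were ranked by the root-mean-square (RMS) difference of log2(CPM + 0.5), each centred on its own mean, as a description over libraries that share their groups and depths. The closest were miR-384-3p (RMS difference 0.122), miR-153-3p, a neuronal miRNA (0.131), miR-107-3p (0.15), miR-300-3p (0.165) and miR-879-5p (0.166). Each of these rose at DIV5 with and without GDNF, by log2 fold changes between 0.58 and 0.93. They were chosen by likeness over the same libraries, so a like day change follows from the choice, here and for miR-135b-5p below. miR-135b-5p was 35th in that order (0.313), miR-135a-2-3p 192nd (0.592), miR-135a-1-3p 323rd (0.88) and miR-135b-3p 342nd (0.937). The strands cut from the miR-135a-5p hairpins themselves were thus farther from its profile than miR-135b-5p was.

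For miR-135b-5p the closest were miR-181c-5p (RMS difference 0.155), miR-30d-5p (0.168), miR-708-5p (0.172), miR-652-3p (0.175) and miR-7a-2-3p (0.182), and miR-135a-5p was 67th. Of these, miR-181c-5p rose by a log2 of 0.34 with GDNF (adjusted p = 0.00896) and 0.34 without (adjusted p = 0.00737), and miR-708-5p by 0.36 with GDNF (adjusted p = 0.0169) and 0.56 without (adjusted p = 0.000481). miR-30d-5p had 0.17 with GDNF (adjusted p = 0.0609) and rose by 0.29 without (adjusted p = 0.00291), and miR-652-3p had 0.30 with GDNF (adjusted p = 0.0606) and rose by 0.39 without (adjusted p = 0.0137). For miR-7a-2-3p neither comparison passed, at -0.05 with GDNF (adjusted p = 0.789) and 0.20 without (adjusted p = 0.299).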

How the data were processed

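Small RNA libraries were made from total RNA with Illumina TruSeq protocols, per the labels' protocols. Reads were trimmed with cutadapt 1.8.1, aligned to mm10 with STAR 2.4.1d and counted with HTSeq, per the submitters' processing notes; the miRNA annotation and the treatment of reads that fit both copies of miR-135a-5p are not given in the sources used here. Each deposited file lists, for 1 library, the unnormalised count of reads by miRNA name. Total miRNA counts were 420118 to 4324505 per library. Reads counted outside miRNAs, 9.51% to 22.6% of these reads and the miRNA reads together, and the other tally lines were left out. Joined names made up 12 entries.

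The analysis used R 4.3.3, edgeR 4.0.16 (filterByExpr, TMM factors, robust quasi-likelihood fit, all 20 libraries with 1 coefficient per group) and Benjamini-Hochberg adjustment over 542 miRNAs, which hold at least 99.9% of each library's counts. DESeq2 1.42.0, limma 3.58.1 with voom, other scalings, filters and left-out libraries were alternatives. SE is the log2 fold change over the square root of F. Ratios used a pseudocount of 0.5 reads and exact permutation tests in Python 3.11.15 with numpy 2.4.6. The fit was tested on simulated counts.

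The members and lists were chosen with earlier results of these data known. Named miRNAs were the 5 members, their genomic neighbours within 100 kb, the 5 most abundant arms of the dopaminergic list and the 5 nearest profiles with a mean of at least 10 CPM. miR-182-5p was named after its values were seen. Same-numbered GDNF and control libraries deviated together at DIV5 in all 5 pairs (r 0.208 to 0.514), by the data and not the labels. Differently numbered libraries within replicates 1 and 2, or within 3 to 5, also did (r 0.180 to 0.331), as closely as some same-numbered ones. The main fit and the exact permutation tests of ratios took the libraries as unpaired. A block by replicate number was run only as an alternative of the edgeR fit.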

Additional observations from a re-analysis of the deposited data

Results flagged for a closer look

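In 3 of 36 sets of 5 libraries examined, 1 library stood apart from the other 4 by Dixon's test at the 95% level; chance alone gives about 1 in 20.

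miR-135b-5p was at 357.8 CPM in DIV1 control replicate 1, whereas the other 4 libraries of that group lay between 526.8 and 584.3 CPM. In the same library the ratio of miR-135a-5p to miR-135b-5p was 2.78, whereas the others lay between 1.90 and 2.11. The ratio of miR-135a-1-3p to miR-135a-2-3p was 2.5 in DIV5 GDNF replicate 5, whereas the others of that group lay between 1.60 and 1.84.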

How the results depend on the processing

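The calls of miR-135a-5p and miR-135b-3p in both day comparisons, and of miR-135a-1-3p with GDNF, held in all 32 alternatives run. The log2 fold change of miR-135a-5p then lay between 0.47 and 1.07 with GDNF and between 0.59 and 1.08 without. The cause of the changes below was not tested. The day difference of miR-135b-5p with GDNF passed at 0.42 under library size alone, 0.29 under DESeq2, 0.54 with no filter, 0.28 with a mean of at least 10 CPM, 0.32 with only the 2 groups compared and 0.31 without DIV5 control replicates 1 and 5. Without GDNF it was 0.41 with DIV5 replicates 1 and 2 alone and did not pass. That of miR-135a-1-3p without GDNF was -0.77 without DIV5 control replicates 1 and 5, -0.60 with DIV5 replicates 3 to 5 and 0.054 with replicates 1 and 2. For miR-135a-2-3p the day difference with and without GDNF turned to 0.072 and 0.18 (library size alone), 0.18 and 0.13 (no filter) and 0.20 and 0.095 (DIV5 replicates 1 and 2).

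No GDNF value of a member passed in any alternative, and those near 0 changed sign. At DIV5 miR-135a-5p had -0.025 (library size alone), -0.082 (without DIV5 control replicates 1 and 5) and -0.047 (DIV5 replicates 1 and 2), miR-135a-2-3p had 0.047 (without DIV5 control replicates 1 and 5), and the neighbour miR-1251-5p had 0.00089 (DIV5 replicates 1 and 2). At DIV1 miR-135b-5p had -9.41e-06 (RLE), -0.020 (no filter), -0.00011 (2 groups only), -0.0085 (without DIV5 control replicates 1 and 5) and -0.0072 (DIV5 replicates 3 to 5), and miR-135b-3p had 0.0029 (library size alone) and 5.69e-05 (voom). For the GDNF effect at DIV5 minus that at DIV1, miR-135a-2-3p had -0.11 (library size alone), -0.026 (voom) and -0.093 (DIV5 replicates 3 to 5), and miR-135a-5p had 0.019 (no filter) and 0.020 (DIV5 replicates 3 to 5).

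With 1 library left out at a time, the values lay as follows. For the day difference they were 0.24 to 0.35 for miR-135b-5p with GDNF, -0.55 to -0.20 for miR-135a-1-3p without GDNF, and -0.19 to 0.058 with GDNF and -0.14 to 0.017 without for miR-135a-2-3p. For GDNF they were -0.048 to 0.13 for miR-135a-5p and -0.34 to 0.0046 for miR-1251-5p at DIV5, and -0.088 to 0.048 for miR-135b-3p and -0.082 to 0.066 for miR-135b-5p at DIV1. For the difference of GDNF effects they were -0.12 to 0.12 for miR-135a-2-3p and -0.12 to 0.061 for miR-135a-5p. Among log2 ratios they were 0.328 to 0.501 for miR-135a-5p over miR-135b-5p and 0.948 to 1.39 for miR-135a-5p over its 3p arms by day without GDNF. For GDNF at DIV1 they were -0.0077 to 0.151 for miR-135a-5p over miR-135b-5p, -0.0781 to 0.0202 for miR-135a-5p over its 3p arms, -0.145 to 0.146 for miR-135b-5p over miR-135b-3p, and 0.24 to 0.381 for miR-135a-1-3p over miR-135a-2-3p.

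The count called for GDNF at DIV5 was 26 in DESeq2, 13 with at least 10 CPM, 0 with only the 2 groups, 0 without DIV5 control replicates 1 and 5, 2 with either part of the DIV5 replicates, and 0 to 43 with 1 library left out. For the difference of GDNF effects it was 1 with DIV5 replicates 3 to 5, and 0 to 1 with 1 library left out.

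Ratios by part of the DIV5 replicates were added after the data were seen. Tests of ratios on fewer DIV5 libraries have fewer permutations, which sets their smallest p. Without DIV5 control replicates 1 and 5 the GDNF difference at DIV5 turned to -0.0099 for miR-135a-5p over miR-135b-5p and -0.0879 for miR-135a-5p over its 3p arms, and the day difference of miR-135b-5p over miR-135b-3p without GDNF, 1.32, no longer passed. Nor did these with DIV5 replicates 1 and 2, and with replicates 3 to 5: 0.943 and 1.87 for miR-135a-5p over its 3p arms with GDNF, 1.51 and 1.47 for miR-135b-5p over miR-135b-3p without GDNF, 1.04 and 1.3 for that ratio with GDNF, and -0.935 and -0.853 for miR-135a-1-3p over miR-135a-2-3p with GDNF.

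With the replicate number as a block within each day, 3 miRNAs were called for GDNF at DIV5, the difference of GDNF effects of miR-135a-2-3p was -0.0070, and no call of a member changed. At DIV1 same-numbered libraries had r of 0.0062 to 0.474, with 3 of 5 closest to their own number, against 5 of 5 at DIV5. Whether the numbers pair the DIV1 libraries is not settled by these values or by the labels. A block within a day cannot give a day difference, so a block across days was added after the data were seen; it changed no call of a member.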
